A study of Mus musculus with 6 samples.

Results

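The genes described here encode the nuclear part of the mitochondrial oxidative phosphorylation system in kidney endothelial cell preparations. They were chosen by symbol as nuclear protein-coding genes of the Nduf, Sdh, Uqcr, Cox4 to Cox8 and Atp5 series, with cytochrome c (Cycs) and cytochrome c1 (Cyc1). Where a symbol had several entries, the entry of highest mean was kept. The rule found 86 genes in 87 entries among 55487 genes of the deposited table, of which 21923 were nuclear and protein-coding. They comprised 35 genes of complex I, 4 of complex II, 9 of complex III, 20 of complex IV, 17 of complex V and cytochrome c, and they lay on 19 chromosomes.

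RNA was measured in 6 mice, 3 in each of 2 groups. All 6 ate a diet with 60% of its calories from fat from the age of 8 weeks, for 4 weeks. The control group was wild-type littermates. Mice of the I-PpoI group carried a Cre recombinase driven by VE-cadherin, an endothelial cell adhesion protein, and a Cre-dependent I-PpoI gene. The genotype label places that gene at ROSA26 in mouse 1, ROSA27 in mouse 2 and ROSA28 in mouse 3. These numbers rise with the mouse number and may be a labelling error, so they do not establish 3 separate sites. I-PpoI is a homing endonuclease that cuts DNA on both strands. Cells were sorted with magnetic beads against CD31 (Pecam1) from collagenase-digested whole kidneys, so the label "endothelial cell" rests on a surface marker and the libraries are bulk. The labels do not say that any animals were pooled.

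Oxidative phosphorylation moves electrons from NADH and succinate through complexes I and II, ubiquinone, complex III, cytochrome c and complex IV to oxygen. Complexes I, III and IV pump protons across the inner mitochondrial membrane, and complex V (ATP synthase) uses the gradient to make ATP. Mitochondrial DNA encodes the hydrophobic core of complexes I, III, IV and V, while all of complex II and every accessory subunit come from the nucleus. Proximal tubule cells of the kidney are rich in mitochondria, and endothelial cells draw much of their ATP from glycolysis.

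Several facts about the libraries bear on every value below. Whole fragments recovered from the deposited values (FPKM, fragments scaled to exon length and library total) came to between 14081222 and 16954481 in the controls. They came to 1590957, 834149 and 13324313 in I-PpoI mice 1, 2 and 3. Mitochondrial genes took 8.83% to 18.3% of fragments in the controls and 6.42%, 38.2% and 48.2% in I-PpoI mice 1, 2 and 3. Minus-strand genes held 68.2% and 70.6% of these in I-PpoI mice 1 and 2 and at most 0.0821% in the other libraries. All 10 endothelial markers were detected, with a summed level of 2457 to 2896 FPKM in the control mice and 1921, 643 and 1196 FPKM in the I-PpoI group. The 12 proximal tubule markers summed to 748 to 1486 FPKM in the control mice and to 302, 661 and 1673 FPKM in the I-PpoI group, and none was at 0 in every library. In bulk libraries, fewer cells of a type and less RNA per cell cannot be told apart.

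Promoters of such genes are known for sites of nuclear respiratory factor 1 (NRF1), the ETS factor GABPA (nuclear respiratory factor 2) and estrogen-related receptors (ERR). RefSeq (GRCm38.p6) gave the 250 bases before the start of 69 of the 86 genes. The NRF1 word, whose matches are capitalized below, was searched on both strands. It was in 12 of the 69 (17.4%) and in 5.52% of 16822 promoters of the same length. The GABPA word CCGGAAG, searched on both strands, was in 11 (15.9%) against 9.43% of all. The ERR word TCAAGGTCA was in 1 (1.45%), Atp5g3, against 0.315% of all, and the YY1 word AAGATGGCG was in 0 against 0.713% of all. Each word was counted on its own, whether or not it overlapped another. Base composition was close, with a median GC content of 56.0% in the 69 and 55.8% in all promoters.

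Cox6a1, Sdhd and Atp5h were the 3 genes with both an NRF1 and a GABPA word, and they are printed with Atp5g3 because their levels are described below. Capitals mark the matched words, on either strand, and each sequence runs 5′ to 3′ toward the gene's start. Cox6a1 lies at chr5:115348959-115349208, Sdhd at chr9:50603850-50604099, Atp5h at chr11:115419920-115420169 and Atp5g3 at chr2:73911327-73911576, all on the minus strand.
Cox6a1: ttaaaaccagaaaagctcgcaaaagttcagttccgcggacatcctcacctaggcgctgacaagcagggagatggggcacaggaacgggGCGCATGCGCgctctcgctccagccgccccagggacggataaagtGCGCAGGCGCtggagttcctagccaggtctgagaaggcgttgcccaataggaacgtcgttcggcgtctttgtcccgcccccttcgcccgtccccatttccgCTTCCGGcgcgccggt
Sdhd: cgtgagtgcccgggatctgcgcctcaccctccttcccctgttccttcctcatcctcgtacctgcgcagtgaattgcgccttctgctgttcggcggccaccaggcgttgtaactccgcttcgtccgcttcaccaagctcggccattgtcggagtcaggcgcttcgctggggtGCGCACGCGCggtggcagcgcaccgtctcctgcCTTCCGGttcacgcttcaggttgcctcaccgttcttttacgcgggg
Atp5h: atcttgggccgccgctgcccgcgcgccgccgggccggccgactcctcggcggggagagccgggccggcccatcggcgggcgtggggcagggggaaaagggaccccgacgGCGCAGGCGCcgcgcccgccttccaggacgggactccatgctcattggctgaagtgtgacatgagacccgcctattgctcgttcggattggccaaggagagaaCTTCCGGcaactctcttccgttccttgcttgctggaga
Atp5g3: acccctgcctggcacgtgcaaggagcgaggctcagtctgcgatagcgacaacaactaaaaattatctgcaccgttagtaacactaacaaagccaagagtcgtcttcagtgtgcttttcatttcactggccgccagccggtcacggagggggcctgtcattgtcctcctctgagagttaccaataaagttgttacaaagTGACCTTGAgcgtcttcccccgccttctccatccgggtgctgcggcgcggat

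The 12 genes with an NRF1 word had a median control level of 46.9 FPKM, and the 55 tested genes whose promoter lacked it had 40.9 FPKM. Their median differences between the I-PpoI and control groups were -0.92 and -0.70 on the log2(FPKM + 1) scale. For GABPA the median control levels were 62.4 FPKM over 11 genes and 39.8 FPKM over 56, with median differences of -0.80 and -0.70. These are descriptions, and a match shows only that the letters are in this window.

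The question asked of these genes was whether their RNA differed between the I-PpoI and control preparations. None of the 82 tested genes passed, and as deposited nearly all were lower in the I-PpoI mice. Their median was near that of genes in general over the group, but not in each mouse. Of the 86, 82 had a mean of at least 1 FPKM and were tested. Cox6a2 was below this filter, and Cox7b2, Cox8b and Cox8c were listed at 0 in every library. Limma called 0 of the 82 at an adjusted p under 0.05, with adjusted p between 0.132 and 0.929, and it called 0.0% of all 14962 genes tested. The median log2 fold change of the 82 was -0.78, against -0.65 over all genes tested, on the log2(FPKM + 1) scale. The values were below 0 for 79 genes and above 0 for 3, where 71.6% of all genes were below 0. In I-PpoI mouse 1 the median log2 difference from the control mean was -1.07 for the 82 and -0.67 for other nuclear protein-coding genes. In I-PpoI mouse 2 these were -0.72 and -1.11, and in I-PpoI mouse 3 they were -0.57 and -0.59.

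At an unadjusted p under 0.05, 22 of the 82 were lower and 0 higher, beside 32.2% lower and 4.23% higher over all genes. The groups did not overlap for 45 genes, all lower in the I-PpoI mice, against 45.1% of all genes lower without overlap and 55.1% of nuclear protein-coding genes, and 2.24% and 1.04% higher. The share of genes whose groups did not overlap was thus near the background. When each library was scaled by the median of ratios, the median of the 82 was 0.14 against 0.10 over all genes, and 51 were above 0 and 31 below. By library, the scaled median difference of the 82 from the control mean was -0.34, 0.55 and 0.10 in I-PpoI mice 1, 2 and 3. On that scale 0 genes passed. At an unadjusted p under 0.05, 2 were higher and 0 lower, beside 5.33% and 2.33% of all genes. The groups did not overlap for 4 genes higher and 0 lower, beside 8.32% and 8.27% of all genes and 6.75% and 9.55% of nuclear protein-coding genes. Without control mouse 2 the median as deposited was -0.44. Without I-PpoI mouse 3, limma called 28 of the 82 lower and 0 higher, beside 36.6% of all genes called lower and 19.8% called higher (56.4% in all).

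**Figure D1:**
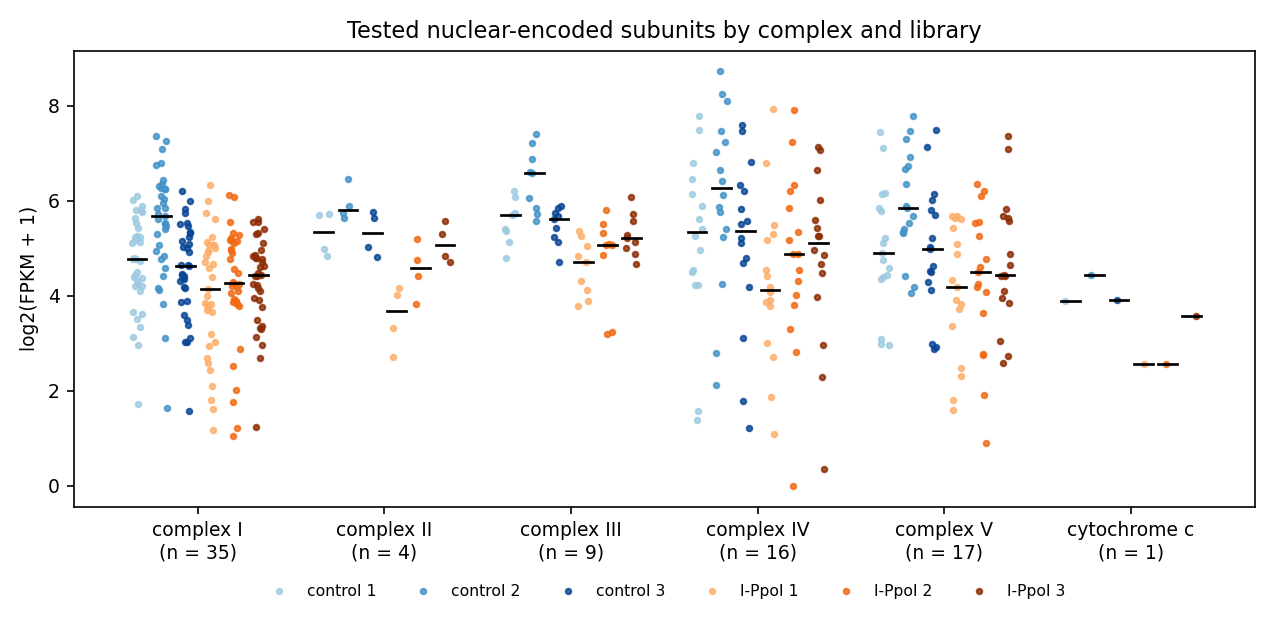
Level of each of the 82 tested genes, as log2(FPKM + 1), by complex and library. Points are genes and black lines are medians, and control mouse 2 has the highest median in every complex.

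Control mouse 2 stood apart from the other controls throughout this gene set. It was the highest control for 80 of the 82 genes and the highest of all 6 libraries for 77. Its level was a median of 1.96 times the mean of control mice 1 and 3, with a range of 0.937 to 3.31 times. It exceeded 1.5 times that mean for 71 genes and 2 times for 38. Atp5e, the epsilon subunit of ATP synthase, had the top ratio, at 33.3, 106 and 30.7 FPKM in control mice 1, 2 and 3. Ndufs1, a core iron-sulfur subunit of complex I, had the lowest, at 9.17, 7.65 and 7.15 FPKM.

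The ratio of control mouse 2 moved with exon length in these genes and in others. Computed on FPKM + 1, for genes with up to 1000 bp of exon it was a median of 2.14 for 20 members and 1.61 for 266 other nuclear protein-coding genes. In the next classes it was 1.95 and 1.39 for those of up to 2000 bp, 1.58 and 1.12 for those of up to 4000 bp, and 1.64 and 0.864 above 4000 bp, where there were 10 members. The median exon length was 1631 bp for the 82 genes and 4358 bp for the others. Across genes, which share the libraries and are not independent, the log ratio correlated with log length at r = -0.45 over the 82 and -0.58 over 11533 others. When each library was also scaled by exon length, the median deviation of the 82 in control mouse 2 was 0.27 on the log2 scale, against 0.65 with median-of-ratios scaling alone. The part of library preparation in this pattern was not tested.

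**Figure D2:**
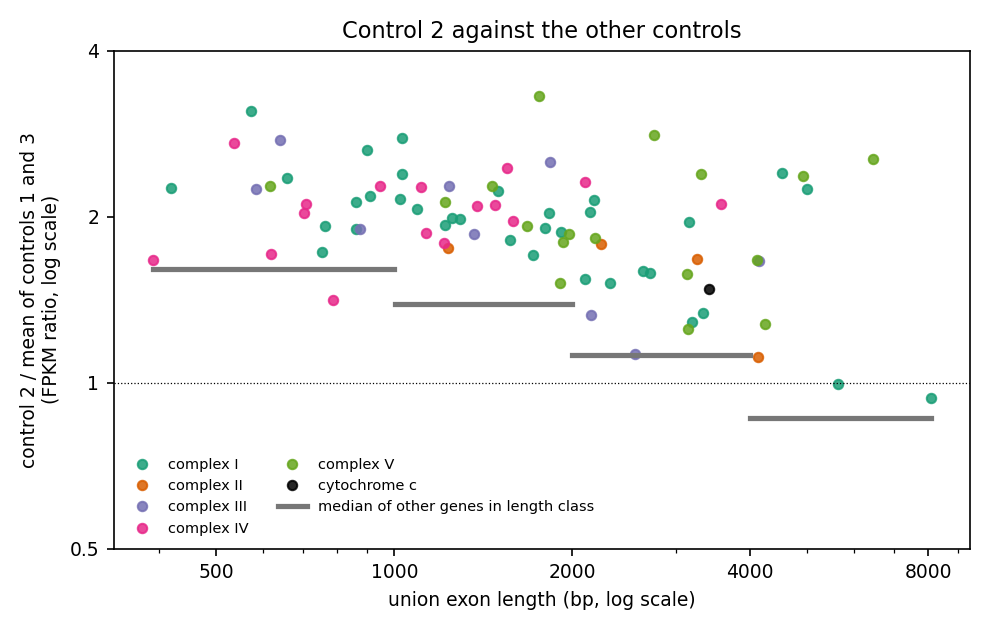
Ratio of control mouse 2 to the mean of control mice 1 and 3 against union exon length, both on log axes. Points are the 82 tested genes coloured by complex, and grey lines are the medians of other nuclear protein-coding genes by length class, computed on FPKM + 1, which fall from 1.61 to 0.864.

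The order of levels among the subunits was nearly the same in the controls and in I-PpoI mouse 3. Over the 82 genes, Spearman's rho between libraries was 0.953 to 0.985 among the controls and 0.943 to 0.980 between I-PpoI mouse 3 and each control. It was 0.730 to 0.762 between I-PpoI mice 1 and 2 and each control, and 0.866 between these 2. These coefficients are across genes and describe the libraries only. In I-PpoI mice 1 and 2, 42 and 62 of the 82 genes had fewer than 50 fragments, so counting error is large there. The strand of mitochondrial fragments also set I-PpoI mice 1 and 2 apart, and its part in the order was not tested.

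**Figure D3:**
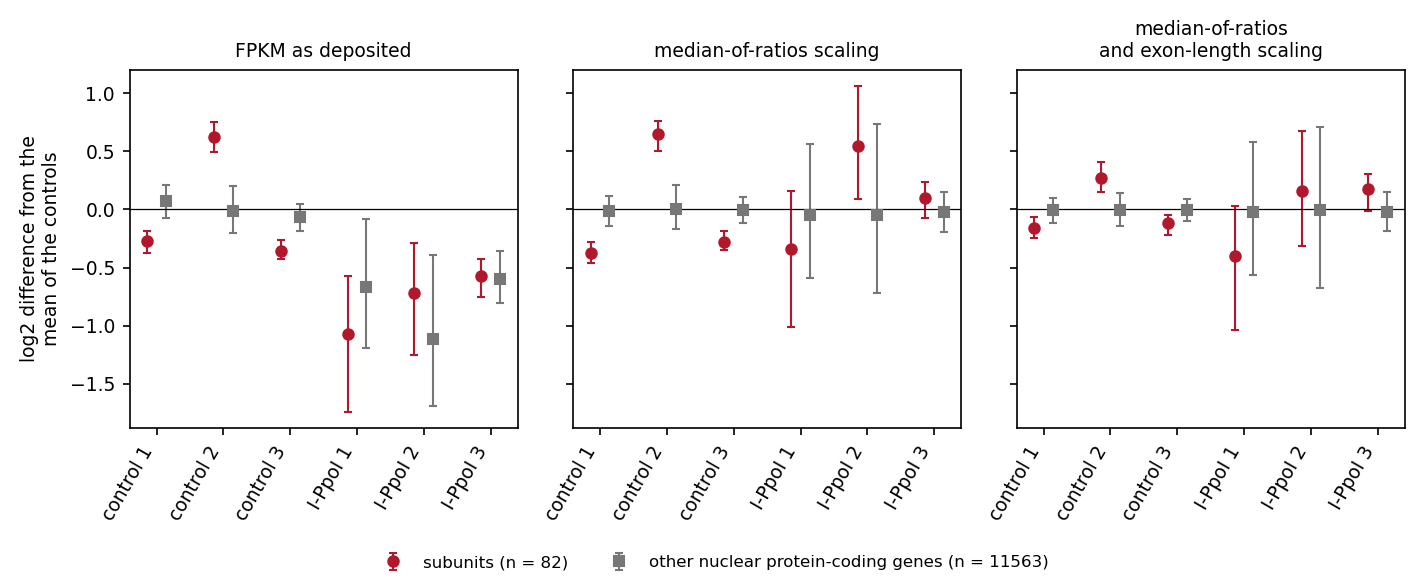
Log2 difference of each library from the mean of the controls, for the 82 tested genes (red) and 11563 other nuclear protein-coding genes (grey), on 3 scales. Symbols are medians and bars the interquartile range, and the 82 genes of control mouse 2 lie above the other genes on each scale.

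As a share of all nuclear protein-coding FPKM, the 86 genes made up 1.60%, 2.66% and 1.66% in control mice 1, 2 and 3. They made up 1.04%, 1.81% and 2.09% in I-PpoI mice 1, 2 and 3. The group means were 1.97% ± 0.593 in the controls and 1.65% ± 0.547 in the I-PpoI mice (SD, n = 3 each), and the groups overlapped. Without control mouse 2 the difference turned from -0.33 to 0.017 percentage points.

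I-PpoI mouse 3 is the deep I-PpoI library with mitochondrial fragments on the plus strand. Its level was a median of 0.819 times the mean of control mice 1 and 3, and 43 of the 82 genes were within 20% of that mean. It was below every control for 72 genes, and the share of all genes below every control was not counted. Other genes were about as low in this library as deposited. The median log2 difference from the control mean was -0.59 over 11563 other nuclear protein-coding genes and -0.57 over the 82. Scaled by the median of ratios and compared with the 3 controls alone, the median was 0.10, with 53 genes above 0 and 29 below and 0 called, beside 0.00668% of all genes called. The 12 proximal tubule markers had a median of 2.23 in the same fit, and the endothelial markers had -0.37. Xist, the RNA of the inactive X chromosome, had 4739 fragments in this library and at most 4 in the controls. Ddx3y, on the Y chromosome, had 0 in this library and 959 to 1672 in the controls. The parts of tubule RNA and of sex-linked RNA in the subunit values of this library were not tested.

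Complex I (NADH:ubiquinone oxidoreductase) had 35 genes, all tested, with control means of 2.12 to 97.7 FPKM and a median of 32.0 FPKM. As deposited 33 were below 0 and 2 above, with a median log2 fold change of -0.66. The groups did not overlap for 18 of the 35, lower in the I-PpoI mice, beside the 45.1% of all genes and 55.1% of nuclear protein-coding genes given above. Scaled, they did not overlap for 3, all higher. The 7 catalytic core genes, which hold the flavin, the iron-sulfur clusters and the quinone site, had a median of -0.69 with a range of -1.11 to -0.49. The 28 accessory genes had a median of -0.63 with a range of -1.67 to 0.29. Scaled by the median of ratios, these medians were 0.19 and 0.27.

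Ndufb11, an X-linked accessory subunit, had the highest control mean of complex I. It was at 67.6, 153 and 72.6 FPKM in control mice 1, 2 and 3, against 62.5, 68.4 and 48.3 FPKM in the I-PpoI group, so the groups overlapped. Ndufb2 had the lowest, at 2.28, 2.11 and 1.97 FPKM in the control mice and 4.43, 1.06 and 1.35 FPKM in the I-PpoI group. I-PpoI mouse 1 was the highest library for Ndufb2 and I-PpoI mouse 2 the lowest. Ndufb2 has 5628 bp of union exon but a principal transcript of 455 bp, so its FPKM understates its level relative to other subunits.

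Ndufs4, an accessory subunit near the NADH-binding module, had the lowest fold change of complex I, at -1.67 (SE 0.59; limma adjusted p = 0.132). It was at 10.5, 16.4 and 10.3 FPKM in the control mice, against 2.07, 1.32 and 8.81 FPKM in the I-PpoI group. I-PpoI mice 1 and 2, with 9 and 3 fragments, were far below the rest, while I-PpoI mouse 3 was just below the lowest control. Ndufb3, a membrane-arm subunit, was among the 4 genes of smallest p, at -1.46 (SE 0.44; limma adjusted p = 0.132). Its levels were 45.0, 81.3 and 39.4 FPKM in the control mice and 13.1, 17.2 and 27.9 FPKM in the I-PpoI group, without overlap.

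Ndufb7 and Ndufv3 were the 2 complex I genes with a fold change above 0. Ndufb7, an intermembrane-space-facing subunit, was at 11.6, 27.4 and 11.2 FPKM in the control mice and 24.4, 30.4 and 8.98 FPKM in the I-PpoI group (0.29, SE 0.58; limma adjusted p = 0.689). Ndufv3, a small subunit of the NADH dehydrogenase module, was at 17.6, 20.3 and 13.9 FPKM in the control mice and 31.1, 18.0 and 12.7 FPKM in the I-PpoI group (0.16, SE 0.41; limma adjusted p = 0.746). In both, I-PpoI mouse 3 was below every control, a shallow I-PpoI library was the highest and control mouse 2 came next. Without I-PpoI mice 1 and 2 the fold changes as deposited were -0.71 for Ndufb7 and -0.40 for Ndufv3.

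For 9 of the complex I genes no exon has an opposite-strand gene within 5 kb. For the accessory subunits Ndufc2 and Ndufs5, the values were 54.7, 85.8 and 44.5 against 33.9, 34.8 and 30.5 FPKM, and 35.3, 65.1 and 33.1 against 32.6, 34.7 and 26.8 FPKM. For the core iron-sulfur subunit Ndufs8 they were 37.2, 67.9 and 31.4 against 29.9, 38.8 and 23.8 FPKM. Only Ndufc2 of these 3 had groups that did not overlap.

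Ndufa10, which is related to nucleoside kinases, was at 19.8, 26.5 and 19.9 FPKM in the control mice and 16.7, 14.3 and 20.2 FPKM in the I-PpoI group. It was the flattest of the 9, with I-PpoI mouse 3 above control mice 1 and 3. Ndufb8 was at 16.1, 32.4 and 17.0 against 12.7, 17.5 and 14.0 FPKM, and Ndufb4 at 17.9, 29.6 and 13.6 against 8.14, 18.7 and 10.2 FPKM. In both, I-PpoI mouse 2 lay among the controls.

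Ndufc1 was at 11.3, 23.0 and 9.39 FPKM in the control mice and 1.25, 6.39 and 9.29 FPKM in the I-PpoI group, where I-PpoI mouse 1 rests on 3 fragments. Ndufa12 was at 6.86, 13.1 and 7.60 against 7.15, 3.04 and 7.75 FPKM, with overlap. Reads of Ndufa12 may be shared with the processed copy Ndufa12-ps, which was itself at 18.3 to 53.4 FPKM in the control mice and 23.8 to 25.4 FPKM in the I-PpoI group, so the level of Ndufa12 is uncertain.

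Complex II (succinate dehydrogenase) links the tricarboxylic acid cycle to the chain and is wholly nuclear-encoded. Its 4 genes had the lowest median fold change of the complexes, -1.13 as deposited and -0.20 scaled. The groups did not overlap for 3 of the 4 as deposited, beside 45.1% of all genes and 55.1% of nuclear protein-coding genes, and for 0 when scaled. Sdhd, a membrane anchor, had the highest control mean, at 50.8, 87.5 and 48.8 FPKM in control mice 1, 2 and 3. In I-PpoI mice 1, 2 and 3 its level was 5.57, 20.4 and 38.7 FPKM (-1.79, SE 0.69; limma adjusted p = 0.135). The I-PpoI mice spanned a wide range, and all 3 were below the controls.

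Sdha, the flavoprotein that oxidizes succinate, was at 51.7, 58.4 and 53.0 FPKM in the control mice and 15.3, 26.03 and 46.4 FPKM in the I-PpoI group. Sdhc, the other anchor, was at 30.7, 52.2 and 31.5 against 9.02, 13.2 and 27.8 FPKM, again without overlap. Sdhb, the iron-sulfur subunit, had the lowest control mean and the highest fold change of the 4, at 27.7, 49.1 and 27.4 against 17.0, 35.7 and 25.3 FPKM. Its groups overlapped because I-PpoI mouse 2 was above control mice 1 and 3. Against the 3 controls, I-PpoI mouse 3 alone had a scaled median of 0.29 for complex II.

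Complex III passes electrons from ubiquinol to cytochrome c. Its 9 genes had a median fold change of -0.96 as deposited and -0.02 scaled, and a median control mean of 65.6 FPKM. Uqcr11, a small accessory subunit, had the highest control mean, at 66.3, 169 and 56.7 FPKM in the control mice and 32.1, 44.7 and 35.9 FPKM in the I-PpoI group. All 3 I-PpoI libraries were below the controls. Uqcrq, the ubiquinone-binding accessory subunit, had the lowest, at 26.9, 65.6 and 25.4 against 18.7, 28.03 and 24.5 FPKM.

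Uqcrb, another ubiquinone-binding subunit, had the lowest fold change of complex III, -1.80 (SE 0.67; limma adjusted p = 0.133). Its levels were 52.8, 96.0 and 48.0 FPKM in the control mice and 12.8, 8.17 and 46.5 FPKM in the I-PpoI group. I-PpoI mouse 3 was next to the lowest control, and I-PpoI mice 1 and 2 were several-fold lower, on 18 and 6 fragments. Gm10767 shares exon sequence with Uqcrb on the opposite strand. It was at 0.406 to 1.25 FPKM in the control mice and 62.2, 71.4 and 0.363 FPKM in the I-PpoI group. The part of strand in the Uqcrb values was not tested. Cyc1, the cytochrome c1 haem subunit, had the highest fold change of complex III, at 41.4, 51.9 and 36.9 against 40.2, 38.8 and 31.2 FPKM (-0.23, SE 0.31; limma adjusted p = 0.545). Uqcrfs1, the Rieske iron-sulfur protein, was at 51.9, 95.5 and 50.5 against 16.5, 32.4 and 51.5 FPKM, so I-PpoI mouse 3 lay within the controls. Cycs, the soluble cytochrome c that carries electrons onward, was at 13.9, 20.6 and 14.0 FPKM in the control mice and 4.95, 4.91 and 10.8 FPKM in the I-PpoI group, without overlap (-1.18, SE 0.40; limma adjusted p = 0.132).

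Complex IV (cytochrome c oxidase) reduces oxygen and has several subunits with alternative, tissue-restricted isoforms. Its 16 tested genes had a median fold change of -0.75 as deposited and 0.18 scaled. Cox6a1, the widely expressed COX6A isoform, had the highest mean of all 86 genes. It was at 221, 422 and 194 FPKM in the control mice and 244, 239.7 and 140.4 FPKM in the I-PpoI group. It ranked first among the 82 genes in every library but I-PpoI mouse 3, where it was the second, and its groups overlapped (-0.38, SE 0.44; limma adjusted p = 0.487).

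Cox8a, the ubiquitous COX8 isoform, was at 179, 305 and 177 FPKM in the control mice and 111, 150.4 and 134 FPKM in the I-PpoI group. Cox6b1, which faces the intermembrane space, was at 87.6, 176 and 79.2 against 44.0, 79.2 and 64.1 FPKM. Cox7c was at 37.4, 68.9 and 36.3 against 17.1, 28.5 and 30.1 FPKM. These 3 genes have no opposite-strand neighbour within 5 kb, and the groups of Cox8a and Cox7c did not overlap.

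Cox7a2l, a relative of COX7A that sits between complexes III and IV in supercomplexes, was among the 4 genes of smallest p. It was at 69.3, 149 and 72.6 FPKM in the control mice and 22.4, 28.3 and 47.1 FPKM in the I-PpoI group (-1.52, SE 0.46; limma adjusted p = 0.132). Ndufa4, now assigned to complex IV despite its name, was at 48.2, 98.9 and 46.4 against 13.5, 13.0 and 37.5 FPKM (-1.63, SE 0.54; limma adjusted p = 0.132). All I-PpoI libraries were below the controls for both genes. Scaled, their fold changes were -0.58 and -0.71, and Ndufa4 was at 0.02 when I-PpoI mouse 3 alone was set against the controls.

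Cox4i2, an oxygen-responsive isoform known from lung and vessels, was at 17.8, 17.9 and 7.64 FPKM in the control mice and 5.54, 6.06 and 6.86 FPKM in the I-PpoI group. Cox4i1, the common isoform, was at 109, 272 and 112 against 38.2, 72.4 and 99.3 FPKM. Cox4i2 was thus 14.0%, 6.19% and 6.36% of COX4 FPKM in the control mice and 12.7%, 7.72% and 6.46% in the I-PpoI mice. The shares of the groups overlapped, and mouse 1 had the highest share in each group.

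For COX7A, Cox7a2, the liver-type isoform, had the lowest fold change of all members, -2.48 (SE 0.91; limma adjusted p = 0.132). It was at 58.0, 129 and 55.7 FPKM in the control mice, against 2.64, 15.2 and 41.9 FPKM in the I-PpoI group, where mice 1 and 2 had 4 and 12 fragments. Cox7a1, the heart and muscle isoform, had the highest fold change, 0.82 (SE 0.47; limma adjusted p = 0.196). It was at 1.97, 5.98 and 2.43 FPKM in the control mice and 6.99, 8.92 and 3.93 FPKM in the I-PpoI group, on 6, 4 and 28 fragments. Its groups overlapped, since I-PpoI mouse 3 was below control mouse 2.

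Of the summed FPKM of Cox7a1 and Cox7a2, Cox7a1 made up 3.28%, 4.41% and 4.17% in the controls and 72.6%, 37.0% and 8.57% in I-PpoI mice 1, 2 and 3. The groups did not overlap, and the 2 large shares came from the libraries with few fragments. In I-PpoI mouse 3, with 28 and 527 fragments, the share was the smallest of the 3. Scaled by the median of ratios, Cox7a1 was 1.58 (SE 0.54; limma adjusted p = 0.326) and was 1 of the 4 genes whose scaled groups did not overlap. The other 3, all of complex I, were Ndufa10, Ndufv3 and Ndufb2.

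The remaining isoforms were near or at the floor. Cox6b2, a testis isoform, was at 1.62, 3.33 and 1.33 FPKM in the control mice and 1.13, 0 and 0.271 FPKM in the I-PpoI group, on 2, 0 and 4 fragments in the latter. Cox6a2, the heart and muscle isoform, was at 0.182, 0.627 and 0.694 against 0.917, 1.76 and 1.10 FPKM, on 1, 1 and 10 fragments in the I-PpoI mice. Cox7b2, Cox8b and Cox8c were listed at 0 in all 6 libraries. Cox5b-ps is annotated as protein-coding and is a close copy of Cox5b, so its 22.4 to 41.2 FPKM in the controls cannot be separated from Cox5b, at 41.4 to 84.4 FPKM.

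**Figure D4:**
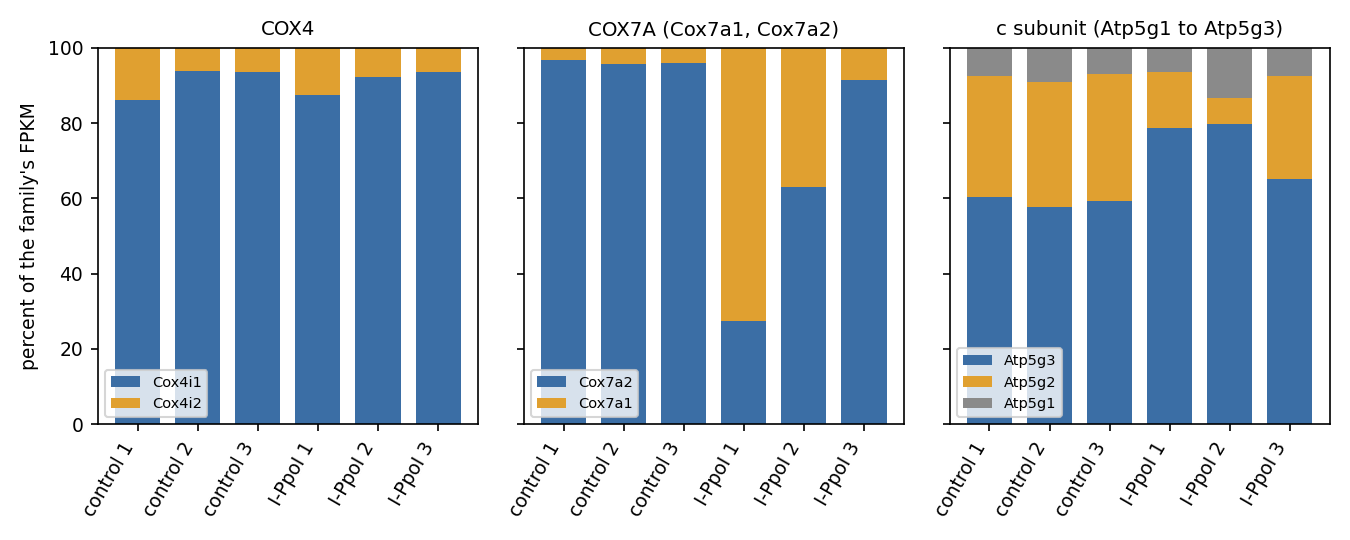
Percent of each family's FPKM held by each isoform in the 6 libraries, for COX4, COX7A and the c subunit of ATP synthase. The Cox7a1 share is 3.28% to 4.41% in the controls and 8.57% to 72.6% in the I-PpoI mice, and the Atp5g2 share is 32.1% to 33.9% against 6.71% to 27.3%.

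Complex V had 17 genes with a median fold change of -0.79 as deposited and 0.12 scaled. The groups did not overlap for 11 of the 17 as deposited, beside 45.1% of all genes and 55.1% of nuclear protein-coding genes, and for 0 when scaled. The F1 part, which binds nucleotides, had the highest levels, with a median control mean of 85.2 FPKM over 5 genes. Atp5a1, the alpha subunit, had the top control mean of the complex, at 173, 219.6 and 178 FPKM in the control mice and 50.5, 80.3 and 165 FPKM in the I-PpoI group. Atp5b, the catalytic beta subunit, was at 138, 177 and 139 against 48.1, 72.7 and 135 FPKM. In both, I-PpoI mouse 3 was just below the lowest control and I-PpoI mice 1 and 2 were far lower.

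Atp5h, the d subunit of the peripheral stalk, was at 69.3, 158 and 69.2 FPKM in the control mice and 42.1, 37.5 and 49.99 FPKM in the I-PpoI group, without overlap. The 9 stalk and other Fo genes had a median control mean of 27.9 FPKM and a median fold change of -0.79, with all values between -1.58 and -0.62. They also had the highest ratio of control mouse 2 to the other controls, a median of 2.27, against 1.52 for the F1 part.

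The c ring, which turns as protons pass, is built from 1 mature protein encoded by 3 genes. Atp5g3 was at 54.1, 100.2 and 55.2 FPKM in the control mice and 48.9, 67.9 and 48.5 FPKM in the I-PpoI group. Atp5g1, with the lowest control mean of complex V, was at 6.82, 15.7 and 6.38 against 3.93, 11.4 and 5.67 FPKM. Both have no opposite-strand neighbour within 5 kb, and both overlapped between the groups.

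Atp5g2 had the smallest p of all members and the lowest fold change of complex V, -1.76 (SE 0.53; limma adjusted p = 0.132). It was at 28.8, 58.0 and 31.6 FPKM in the control mice and 9.31, 5.70 and 20.3 FPKM in the I-PpoI group, without overlap. Its share of c-subunit FPKM was 32.1%, 33.4% and 33.9% in the controls and 15.0%, 6.71% and 27.3% in the I-PpoI mice. The controls had similar shares although control mouse 2 was high for each gene, and every I-PpoI mouse was lower, with I-PpoI mouse 3 nearest. Atp5g2 had 25, 8 and 454 fragments in I-PpoI mice 1, 2 and 3, so the shares of the first 2 are uncertain. Scaled, Atp5g2 was at -0.86 (SE 0.45; limma adjusted p = 0.342).

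Ndufa1, Ndufb11 and Cox7b are X-linked, and the libraries differed in sex-linked RNA. Xist, the RNA of the inactive X chromosome, had 4, 0 and 0 fragments in the controls and 0, 70 and 4739 in the I-PpoI mice. For Ddx3y, on the Y chromosome, the counts were 1488, 959 and 1672 against 20, 0 and 0. Sex-linked RNA thus set I-PpoI mice 2 and 3 apart from the controls, while I-PpoI mouse 1 had Ddx3y but no Xist fragments. The labels used here give no sex, and the part of sex-linked RNA in the member values was not tested. Ndufa1, an accessory subunit of complex I, was at 48.9, 107 and 45.6 FPKM in the control mice and 14.9, 22.8 and 38.7 FPKM in the I-PpoI group. Cox7b was at 30.2, 57.1 and 33.3 against 15.9, 35.4 and 27.9 FPKM. The fold changes of Ndufa1, Ndufb11 and Cox7b were -1.35, -0.61 and -0.60 as deposited, all below 0. Scaled, they were -0.42, 0.33 and 0.33, so the last 2 turned in direction.

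Union exon length shaped the order of levels between subunits. The union of all annotated exons was a median of 1.66 times the principal transcript over the 82 tested genes. It was more than 2 times for 35 of the 86 and 12.4 times at most, for Ndufb2. Atp5l, a membrane subunit of ATP synthase, has 6443 bp of union exon and a principal transcript of 544 bp. Its control mean of 10.2 FPKM placed it at 76 of 86, and per kilobase of the principal transcript it came to 121 and rank 22. Cox6a1 was at rank 1 on both scales, and Cox4i1 moved from rank 4 to rank 2.

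Of the 86 genes, 26 share exon sequence with a gene on the other strand, in 30 pairs, and 28 of these pairs had more than 3 fragments of the partner in the controls. The partner was above every control in both I-PpoI mice 1 and 2 in 17 of the 28 pairs. The share of all genes above every control in both was not counted. The median ratio of the partner to its control mean was 8.47, 11.5 and 0.566 in I-PpoI mice 1, 2 and 3.

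Pdzd9 lies opposite Uqcrc2, a core protein of complex III. Pdzd9 was at 0.312, 0.359 and 0.460 FPKM in the control mice and 150.4, 179.6 and 0.172 FPKM in the I-PpoI group. Uqcrc2 itself was at 40.1, 46.5 and 42.3 against 13.9, 8.42 and 34.1 FPKM. In fragments, Uqcrc2 and Pdzd9 had 1653 and 11 in control mouse 1 but 57 and 526 in I-PpoI mouse 1.

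Emc8, opposite Cox4i1, was at 6.10, 7.17 and 5.39 FPKM in the control mice and 79.9, 92.3 and 3.67 FPKM in the I-PpoI group. Gabpa, which encodes the DNA-binding subunit of nuclear respiratory factor 2, lies opposite Atp5j, the coupling factor 6 subunit. It was at 13.1, 8.68 and 12.4 against 63.2, 36.9 and 7.22 FPKM, and whether its fragments in I-PpoI mice 1 and 2 are Gabpa RNA was not tested. The antisense model Gm30934, opposite Atp5l, was at 0.911 to 3.84 FPKM in the control mice and 451, 498 and 1.29 FPKM in the I-PpoI group.

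In 9 of the 28 pairs the partner was under 2 times its control mean in both of these libraries. Mrpl36, opposite Ndufs6, was at 16.4 to 31.3 FPKM in the control mice and 7.52, 9.25 and 11.3 FPKM in the I-PpoI group. Eef1b2, opposite Ndufs1, was at 39.5 to 98.9 against 15.8, 23.1 and 25.3 FPKM. The members' own median differences were similar with and without this overlap. These medians also take in I-PpoI mouse 3, and the part of the split of fragments between strands in them was not tested. The median fold change was -0.80 for 19 genes with no opposite-strand neighbour within 5 kb, -0.79 for 38 with one within 5 kb and -0.77 for 25 with exon overlap. Among other nuclear protein-coding genes the classes did differ in I-PpoI mice 1 and 2. Their median ratio to the control mean, on FPKM + 1, was 0.535 and 0.391 without such a neighbour. With exon overlap it was 0.822 and 0.606. For the members the same ratios were 0.428 and 0.608 without such a neighbour, and 0.480 and 0.534 with exon overlap. 

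**Figure D5:**
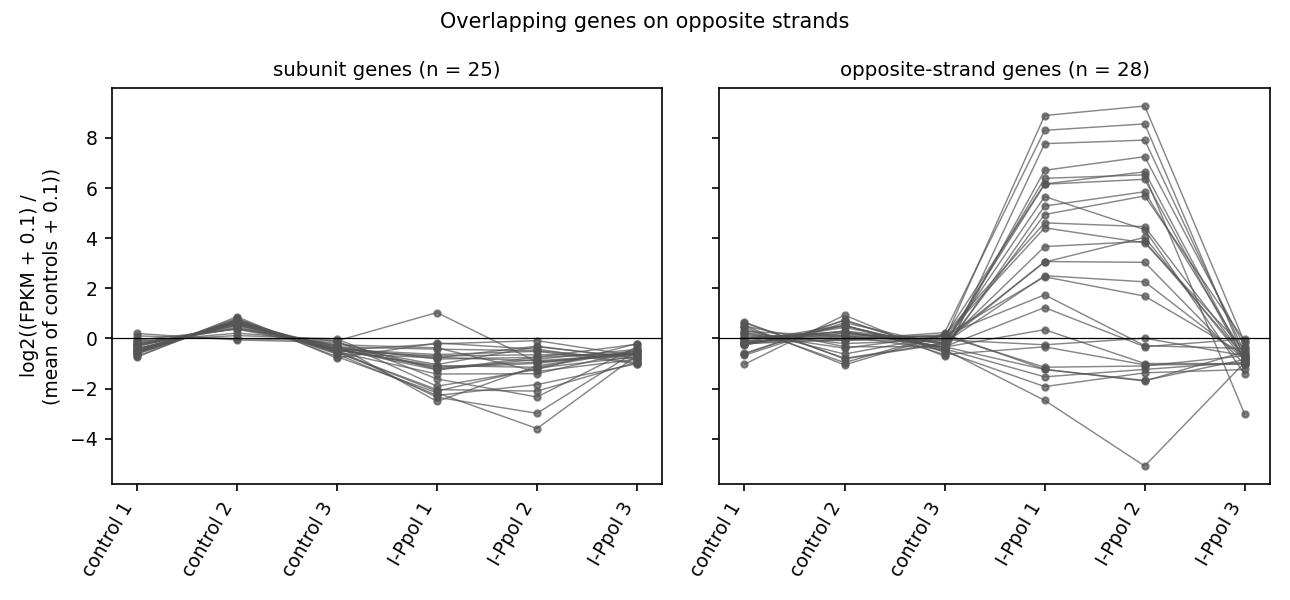
Level of 25 subunit genes and of their 28 opposite-strand partners in each library, as log2 of FPKM + 0.1 over the control mean + 0.1. Lines join the values of 1 gene, and most partners are high in I-PpoI mice 1 and 2 and below the control mean in I-PpoI mouse 3.

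The 13 mitochondrially encoded subunits had a median fold change of 0.38 as deposited, with 7 above 0 and 6 below and 0 past the threshold. Scaled by the median of ratios, their median was 1.34, with 12 above 0 and 1 below. I-PpoI mouse 3 alone had a scaled median of 2.63 against the controls. The 4 of smallest p were mt-Nd3, mt-Nd6, mt-Nd4l and mt-Co3. mt-Nd6, the 1 subunit gene on the minus strand, was at 84.2, 172 and 152 FPKM in the control mice and 65124, 372886 and 668 FPKM in the I-PpoI group.

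The balance of mitochondrial to nuclear transcripts was described with plus-strand genes only, so mt-Nd6 is not in it. Leaving mt-Nd6 out does not make I-PpoI mice 1 and 2 comparable with the other libraries. Minus-strand genes held 68.2% and 70.6% of the mitochondrial fragments in I-PpoI mice 1 and 2. The genes taken were mt-Nd1, mt-Nd2, mt-Nd4 and mt-Nd5 for complex I, mt-Cytb for complex III and mt-Co1 for complex IV, which leaves out the plus-strand genes listed at far lower FPKM. For complex I, the median of these 4 mitochondrial genes over the median of 35 nuclear ones was 272, 246 and 634 in control mice 1, 2 and 3. It was 87.7, 481 and 1858 in I-PpoI mice 1, 2 and 3. For complex III, mt-Cytb over the nuclear median was 346, 314 and 729 against 139.7, 538 and 2408. For complex IV, mt-Co1 over the nuclear median was 558, 453 and 1093 against 311, 1017 and 3540. With these genes the groups overlapped in each complex, with I-PpoI mouse 1 lowest and I-PpoI mouse 3 highest. With all 6 plus-strand mt-Nd genes the complex I ratios were 190.0, 150.3 and 442 against 77.7, 403 and 1259.7, in the same order at both ends. With mt-Co1, mt-Co2 and mt-Co3 the complex IV ratios were far lower, 3.44, 6.16 and 17.0 against 4.00, 60.3 and 129.8, with control mouse 1 lowest and I-PpoI mouse 3 highest. Proximal tubule markers were also highest in I-PpoI mouse 3 and lowest in I-PpoI mouse 1, and their part in this balance was not tested.

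Lists of genes around the chain had 0 members called, where 0.0% of all genes were called. Of 43 tested assembly factors, 36 were below 0 and 7 above, with a median of -0.70 as deposited and 0.07 scaled. The 4 of smallest p were Cox14, Cox18, Ndufaf4 and Tmem126b, each with limma adjusted p = 0.132. Cox14, a complex IV assembly factor, was at 14.9, 25.1 and 15.2 FPKM in the control mice and 5.09, 6.67 and 8.16 FPKM in the I-PpoI group, without overlap.

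Of 17 tricarboxylic acid cycle enzymes and related dehydrogenase subunits, 17 were below 0, with a median of -0.81 as deposited and 0.10 scaled. Cs, citrate synthase, was at 26.7, 25.6 and 27.6 FPKM in the control mice and 6.26, 8.67 and 17.8 FPKM in the I-PpoI group. Pdhb, Pdhx and Ogdh were the others of smallest p, each with limma adjusted p = 0.132. Of 25 carriers and import genes, 24 were below 0, with a median of -0.78 as deposited and 0.10 scaled. Tomm22, an import receptor, was at 31.6, 50.4 and 27.2 against 9.82, 7.23 and 14.9 FPKM, and Vdac3, Slc25a20 and Tomm70a followed, each with limma adjusted p = 0.132.

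Of 17 regulators of mitochondrial biogenesis, 10 were below 0 and 7 above, with a median of -0.40 as deposited and 0.40 scaled. Tfam, which packages mitochondrial DNA, was at 5.58, 5.96 and 4.96 FPKM in the control mice and 1.55, 2.42 and 3.06 FPKM in the I-PpoI group. Nrf1, Mterf3 and Lrpprc came next by p, with limma adjusted p = 0.132 for the first 2 and 0.135 for Lrpprc. Twnk and Slirp, at 51.3 and 133 FPKM in I-PpoI mouse 1 against at most 4.13 and 7.01 FPKM in the controls, have exon overlap on the opposite strand. Of 7 paralogs and inhibitors, which include the member Cox7a2l, 7 were below 0, with a median of -0.97 as deposited and -0.07 scaled. Higd2a, Ucp2 and Ndufa4l2 had the smallest p after Cox7a2l, with limma adjusted p = 0.132, 0.132 and 0.135.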

How the data were processed

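Per the labels' protocols, CD31-sorted kidney cells of 6 mice gave RNA libraries that were read from both ends over 100 cycles. The deposited table holds FPKM per gene, which the authors normalized to fragments and exon length. The submitters' processing notes name DESeq2, mm10 and GRCm38. No aligner or counter is named, and the strand setting is not given in the sources used here. The split of fragments between opposite-strand genes differed between libraries. Of 55487 gene IDs, 55227 matched GENCODE M21, whose union exon lengths turned 98.5% to 98.6% of values under 1000 fragments into whole fragments, within 0.05.

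Genes whose mean over the 6 libraries reached 1 FPKM were fitted with limma on the log2(FPKM + 1) scale, control against I-PpoI, without a block. P-values were adjusted by Benjamini-Hochberg over all 14962 genes, and 0.05 was the threshold. For low genes this scale understates fold changes. FPKM values are not counts, so limma served as the main test, and limma-voom on recovered fragments was an alternative. Median-of-ratios scaling divides each library by the median of its ratios to the geometric mean, and exon-length scaling then subtracts each library's median log2 deviation within 20 bins of exon length. On simulated data the fit recovered most of the larger and few of the smaller changes. The simulation held none of the strand, composition or exon-length differences between these libraries, so it does not give the power of the test here. The labels describe separate mice.

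The alternatives were pseudocounts of 0.1 and 0.5, a filter at 5 FPKM or none, several scalings, a robust and a weighted fit, the replicate block, nuclear protein-coding genes, strand-clear genes and each library left out. Named members are the highest and lowest of each complex by control mean and by fold change, the isoform genes, the X-linked genes, those without an opposite-strand neighbour within 5 kb and the 4 of smallest p in each direction. Up to 4 genes of smallest p are named per list. Other members, partners and list genes were picked with their values already known. The members and lists were chosen with earlier results of these data known. Promoters are from RefSeq, and motifs were matched exactly on both strands. The fits used limma 3.58.1 in R 4.3.3, and tables and plots used pandas 2.3.3, numpy 2.4.6 and matplotlib 3.10.9 in python 3.11.15.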

Additional observations from a re-analysis of the deposited data

How the results depend on the processing

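At the limma threshold, the count of 0 members (22 at an unadjusted p under 0.05) held under the planned pseudocounts, filters, other scalings, limma-voom, robust fit, replicate block, nuclear protein-coding genes and strand-clear genes. It became 14, all lower, with array weights, beside 26.5% of all genes called lower. With 1 library left out it was 0 to 28 as deposited and 0 to 7 with median-of-ratios scaling, where every call came from leaving out I-PpoI mouse 3. The 7 were 4 higher and 3 lower, beside 25.2% and 10.7% of all genes. Over all genes the count of 0 became 6747 with array weights and was 0 to 8438 with 1 library left out, or 0 to 5374 scaled. Without I-PpoI mice 1 and 2 it was 1 scaled and 29 with exon-length scaling as well. Of 121 pathway list genes, 37 passed with array weights (45.1% of all genes), and 0 to 64 with 1 library left out (up to 56.4% of all genes), or 0 to 31 scaled (up to 35.9%). The smallest limma adjusted p over the members ranged from 0.00161 to 0.612 over these alternatives.

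The median of -0.78 was -0.30 with a common nuclear protein-coding total, with 18 genes above 0. It was 0.14 with median-of-ratios scaling, -0.019 with exon-length scaling as well and 0.14 with the replicate block on the scaled values. It was 0.34 over 19 strand-clear genes scaled among themselves. Without I-PpoI mice 1 and 2 it was 0.10 scaled and 0.17 with exon-length scaling as well. With 1 library left out it was -0.95 to -0.44 as deposited. Scaled, it was 0.34, -0.093 and 0.19 without I-PpoI mouse 1, 2 and 3 and -0.024, 0.50 and 0.0040 without control mouse 1, 2 and 3. The cause was not tested.

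Some named genes turned in direction. Without I-PpoI mice 1 and 2, Ndufa4 was at 0.018 scaled and 0.15 with exon length, and Ndufb7 at -0.71 as deposited, -0.062 scaled and -0.018 with exon length. With 1 library left out, Ndufb7 was -0.039 (without I-PpoI mouse 2) to 0.79 (without I-PpoI mouse 3). Ndufv3 was -0.17 (without I-PpoI mouse 1) to 0.45 (without I-PpoI mouse 3), and -0.40 without I-PpoI mice 1 and 2. With I-PpoI mice 1 and 2 left out, the lone I-PpoI library is taken to have the spread of the controls. The scaled fits with libraries left out and the exon-length scaling were chosen after seeing the data.

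Same-numbered libraries correlated weakly, at 0.09, 0.06 and -0.02 as deposited and at 0.14, 0.06 and 0.04 scaled. Libraries of different numbers correlated at -0.11 to 0.03 as deposited and at -0.09 to 0.015 scaled. The same-numbered value was the highest for each I-PpoI library when scaled, but not for I-PpoI mouse 3 as deposited. Whether the numbers pair the samples was not tested. The replicate block left 0 members and 0 genes past the threshold, with a median of -0.78. Depth limits the values of I-PpoI mice 1 and 2, where 42 and 62 of the 82 genes had fewer than 50 fragments.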
